A study of Mus musculus with 4 samples.

Results

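Mediator is the large protein complex that sits between transcription factors bound to DNA and RNA polymerase II at the promoter. Its subunits are grouped into a head and a middle that contact the polymerase, a tail that many transcription factors bind, the backbone subunit MED14 that joins these parts, and a separable kinase module built around CDK8 or CDK19 and cyclin C. The complex takes part in transcription of most protein-coding genes, and mouse embryos without particular subunits, MED21 among them, do not complete development. Its members were taken here as the rows of the count tables whose symbol is Med followed by a number, with or without a final l, plus Cdk8, Cdk19 and Ccnc. This rule gave 33 of 55453 genes: 7 of the head, 9 of the middle, 1 scaffold, 9 of the tail and 7 of the kinase module. Assignments of the smaller subunits between head and tail differ among descriptions of the complex, and Med27 to Med30 were placed in the tail.

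RNA was counted in wells of mouse embryos that carried 1 of a pair of morpholinos, antisense oligonucleotides that block translation or splicing of a target RNA. The 4 groups were blastocyst wells with the NKX1-2 morpholino, blastocyst wells with a control morpholino, morula wells with the NKX1-2 morpholino and morula wells with the control morpholino. NKX1-2 is a homeobox transcription factor. The morula is the compacted ball of cells before the cavity forms, and the blastocyst has an outer trophectoderm around an inner cell mass. There were 2 plates of 96 wells for either stage, with 48 wells per morpholino on a plate. The labels name a single cell source but do not say whether a well held 1 cell or more, and they give no strain or age. Their protocol describes detergent lysis, polyA capture and a TruSeq library, while their description names 10x Genomics. A plate of morula wells never held blastocyst wells.

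Of 384 wells, the 368 in which 2000 genes or more were detected entered the analysis, summed per plate and morpholino into 8 sums of 1084312 to 2398605 counts. The median well held 22391 to 48648 counts, with the lowest median in the control wells of blastocyst plate 1. All 4 plates carried the same 96 well barcodes, so a barcode does not tell plates apart. Nkx1-2 itself had 0 counts in every sum, which, at 3 counts, allows up to 2.77 CPM (counts per 1e+06 counts) in the smallest sum. A morpholino need not lower its target's RNA, so this gene was no check of the labels. Summed trophectoderm markers reached 644 to 857 CPM in the blastocyst sums, against 282 to 299 CPM in the morula sums. In that list Tfap2c went the other way, at 80.7 to 95.3 CPM in the blastocyst, against 171 to 214 CPM in the morula. Summed inner cell mass markers were at 256 to 407 CPM in the blastocyst and 413 to 443 CPM in the morula. Of these, Gata6 fell from 223 to 256 CPM in the morula to 112 to 168 CPM in the blastocyst. Nanog went the other way, at 72.8 to 139 CPM in the blastocyst, against 45.9 to 60.4 CPM in the morula. Of the 6 cumulus and granulosa cell markers, 4 were at 0 in all sums and the list summed to 12.7 to 21.8 CPM in the blastocyst and 71.6 to 85.1 CPM in the morula, nearly all from Amhr2. Fibroblast markers summed to at most 1.55 CPM and blood markers to at most 9.99 CPM. Wells were also classed by sex-linked genes, as an Xist class (Xist counted, the Y-linked genes Eif2s3y, Ddx3y and Kdm5d at 0), a Y class (the reverse), both or neither. On blastocyst plate 2, 22 of 44 NKX1-2 wells and 19 of 43 control wells had both, against 4 to 8 wells in each other sum. The classes thus do not cleanly give the sex of a well. The Xist class held 74.5% and 45.5% of NKX1-2 wells against 34.9% and 14.0% of control wells on blastocyst plates 1 and 2, and 20.8% and 48.9% against 52.1% and 56.3% on morula plates 1 and 2. Its share thus differed between the morpholinos, in opposite directions at the 2 stages.

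The promoters of Med21 and Ccnc are shown because these 2 members were lower in NKX1-2 wells and the target is a transcription factor. The sequences are from RefSeq on GRCm38.p6, plus strand, chr6:146642329-146642528 for Med21 and chr4:21727451-21727650 for Ccnc, and run 5′ to 3′ from 250 to 51 bases before the RefSeq start of each gene. Capitals mark the GC box GGGCGG, which Sp1-type factors bind, on either strand.
Med21 promoter: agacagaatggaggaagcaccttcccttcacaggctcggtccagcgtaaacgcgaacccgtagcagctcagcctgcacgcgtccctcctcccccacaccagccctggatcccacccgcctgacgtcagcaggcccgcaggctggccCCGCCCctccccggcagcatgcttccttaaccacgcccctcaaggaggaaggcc
Ccnc promoter: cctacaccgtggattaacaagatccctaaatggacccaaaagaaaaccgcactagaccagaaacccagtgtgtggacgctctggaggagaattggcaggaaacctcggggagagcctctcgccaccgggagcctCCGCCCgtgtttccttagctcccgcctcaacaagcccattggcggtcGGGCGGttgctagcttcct
The Med21 window held 1 GC box and the Ccnc window 2. Of the 33 members, 28 had a promoter in the table, and 15 of those 28 held a GC box in the same window, against 24.5% of 27025 promoters. The letters TAAT, the core that many homeodomains bind, were searched on both strands and occurred 0 times in the Med21 window and 1 time in the Ccnc window. They were found in 13 of the 28 members with a promoter and in 50.7% of all promoters. The longer TAATTA, which contains TAAT, was in 0 of 28 members and in 4.25% of all promoters. CCAAT was in 8 of 28 members, with 2 copies in the Ccnc window, against 28.9% of all promoters, and TATAAA was in 3 of 28, against 9.48%. These are matches of letters in a window, and no binding was measured.

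Med21 was the member with the largest morpholino difference at both stages. It encodes a small subunit that pairs with MED7 in the middle module. In the blastocyst it had 42.6 and 56.2 CPM in the NKX1-2 sums of plates 1 and 2, against 222 and 162 CPM in the control sums. In the morula it had 37.4 and 33.7 CPM in the NKX1-2 sums, against 88.3 and 114 CPM in the control sums. All 4 NKX1-2 sums were below all 4 control sums, across stages as well as within each plate. The mean was 49.4 ± 9.63 CPM in NKX1-2 and 192 ± 42.7 CPM in control blastocyst sums, and 35.6 ± 2.60 CPM in NKX1-2 and 101 ± 18.5 CPM in control morula sums (SD, n = 2 plates each). In sums over wells, fewer cells that express a gene and less of its RNA per cell cannot be told apart. Fitted log2 fold changes were -1.93 (SE 0.22, adjusted p = 0.000922) in the blastocyst, -1.50 (SE 0.21, adjusted p = 0.00359) in the morula and -1.71 (SE 0.15, adjusted p = 3.04e-05) on average, in edgeR's quasi-likelihood test with Benjamini-Hochberg adjustment over 10873 genes. The counts behind these levels were 55 and 85 in the NKX1-2 blastocyst sums against 211 and 214 in the control ones, and 99 and 88 in the NKX1-2 morula sums against 212 and 254 in the control ones. Summed trophectoderm markers were at 857 and 688 CPM in the NKX1-2 blastocyst sums, against 659 and 644 CPM in the control ones, and the part of cell make-up in the Med21 difference was not tested. The plates of a stage are the replicates, n = 2, and the labels do not say whether they came from separate litters or injections. The p-values rest on how the difference between NKX1-2 and control within a plate varied between plates, estimated over both stages together. The effect of Med21 differed between the stages by -0.43 in log2 (blastocyst minus morula, SE 0.30, adjusted p = 0.883), which did not pass. The morula call was lost without morula plate 2 (-1.21, adjusted p = 0.21) and passed without morula plate 1 (-1.75, adjusted p = 0.00107), where the remaining plate is assumed to vary like the blastocyst plates.

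**Figure D1:**
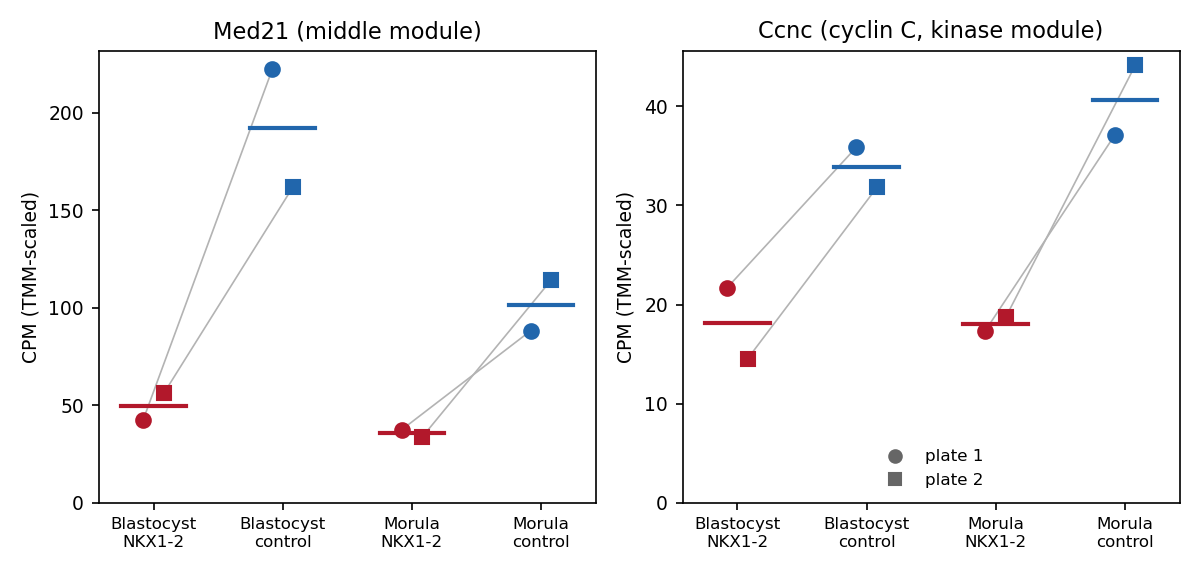
Levels of Med21 (left) and Ccnc (right) in TMM-scaled CPM for each plate sum, NKX1-2 in red and control in blue, with circles for plate 1 and squares for plate 2 of each stage. Thin lines join the 2 sums of a plate and thick bars are the means of 2 plates; in every plate the NKX1-2 sum lies below the control sum for both genes.

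Ccnc, which encodes the cyclin that activates CDK8 and CDK19, was the other member that passed. In the blastocyst it had 21.7 and 14.6 CPM in the NKX1-2 sums, against 35.9 and 31.8 CPM in the control sums, which did not pass (log2 fold change -0.92, SE 0.29, adjusted p = 0.155). In the morula it had 17.4 and 18.8 CPM in the NKX1-2 sums, against 37.1 and 44.1 CPM in the control sums, which did (-1.16, SE 0.23, adjusted p = 0.0278). Averaged over the stages Ccnc fell by 1.04 in log2 (SE 0.18, adjusted p = 0.00608). The NKX1-2 sum was lower in all 4 plates, and the test of a difference between stages did not pass (0.24, SE 0.37, adjusted p = 0.955). The morula call was lost without either morula plate, at -1.22 (adjusted p = 0.736) without plate 1 and -1.06 (adjusted p = 0.999) without plate 2, and DESeq2 gave an adjusted p near 1 at about the same fold. Among wells of the Xist class alone, 10 and 23 NKX1-2 wells against 25 and 27 control wells of the morula plates, it was -0.78 (adjusted p = 0.832) in the morula and -0.88 (adjusted p = 0.264) on average. These levels rest on 28 and 22 counts in the NKX1-2 blastocyst sums, against 34 and 42 in the control ones, and on 46 and 49 in the NKX1-2 morula sums, against 89 and 98 in the control ones. The last 500 exonic bases of Ccnc overlap the opposite-strand gene Tstd3 over 55.2% of their length.

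No other member passed in the morpholino comparisons. Of 32 members tested, 1 passed in the blastocyst, lower, where 0.727% of all genes passed (0.386% higher, 0.34% lower). In the morula 2 passed, both lower, where 0.552% of all genes passed (0.276% higher, 0.276% lower). On average over the stages the same 2 passed, where 2.9% of all genes passed (1.56% higher, 1.33% lower). For the difference between stages 0 members passed in edgeR, where 0.0184% of all genes passed (0.0092% higher, 0.0092% lower), 0 had an unadjusted p under 0.05 (6.43% of all genes did), and DESeq2 and limma voom also called 0. At an unadjusted p under 0.05 there were 3 of 32 members in the blastocyst, where 13.7% of all genes were, and 4 of 32 in the morula, where 10.7% were. The members' median log2 fold change was 0.13 in the blastocyst, -0.03 in the morula and 0.03 on average, next to all-gene medians within 0.01 of 0. Med12 did not reach the minimum count of this fit; without that filter it was tested and did not pass.

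Set against the other subunits, Med21 stood below the whole range of the 30 tested members other than Ccnc in each plate. Per plate, its log2 difference between NKX1-2 and control CPM was -2.36 and -1.51 on blastocyst plates 1 and 2, and -1.22 and -1.73 on morula plates 1 and 2. The other members, with Med21 and Ccnc set aside, ran between -0.58 (Med6) and 1.09 (Med23) on blastocyst plate 1 and between -0.44 (Med16) and 1.01 (Med14) on blastocyst plate 2. On the morula plates they ran between -0.55 (Med13) and 0.69 (Med31), and between -0.73 (Med30) and 0.70 (Med12l). Their median was 0.11 and 0.07 in the blastocyst plates and 0.02 and -0.09 in the morula plates. Ccnc, at -0.70 and -1.07 in the blastocyst and -1.05 and -1.19 in the morula, also lay below the lowest of these 30 members in each plate. Across the 32 members, 3 were lower in all 4 plates (Ccnc, Med16 and Med21) and 3 were higher in all 4 (Med12l, Med14 and Med19), while 24.2% of all genes moved one way in all 4 plates. Since Med21 was singled out with results of these data known, this ranking is a description and was given no test.

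**Figure D2:**
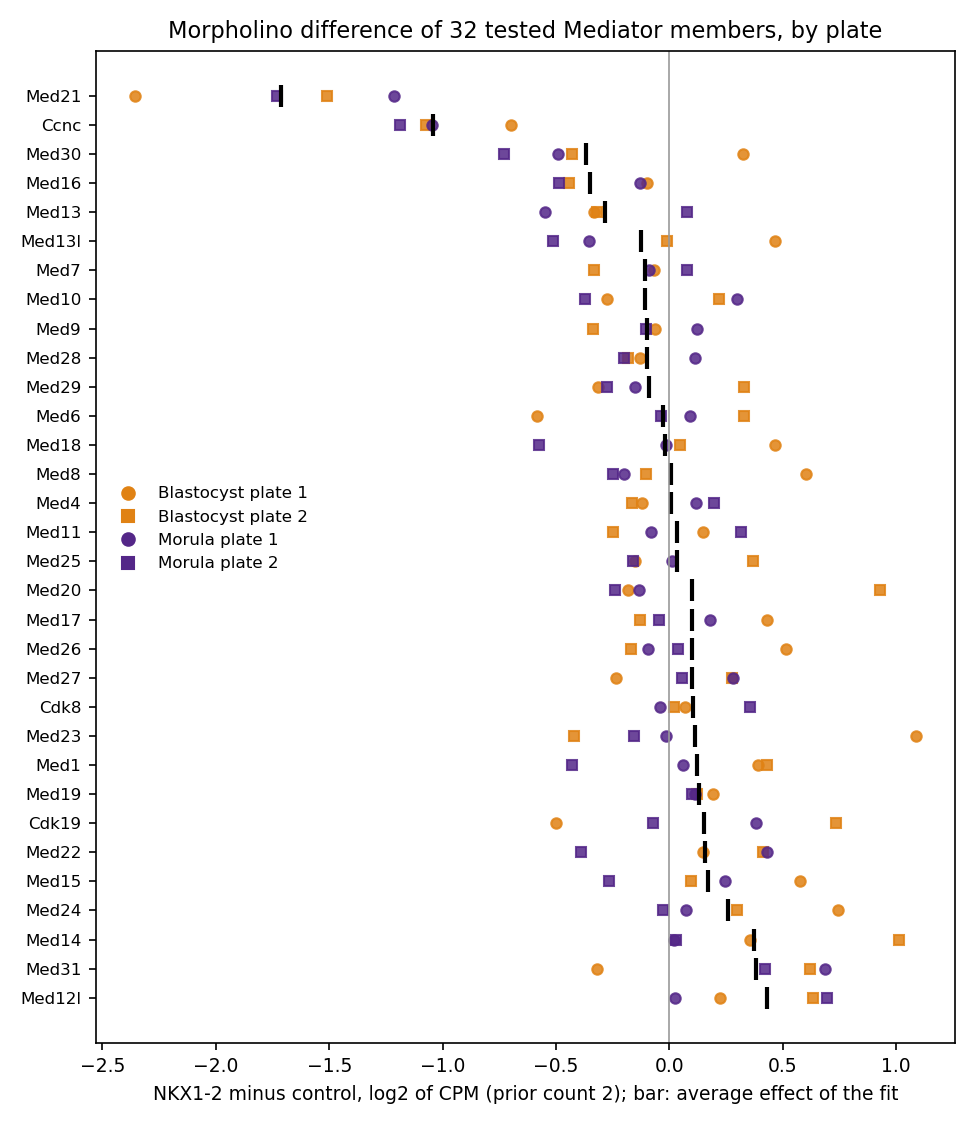
Log2 difference in CPM, NKX1-2 minus control, of the 32 tested Mediator members in each plate, with orange for blastocyst and purple for morula plates, circles for plate 1 and squares for plate 2; black bars are the fitted average effect. Within each plate the points of Med21 and Ccnc lie left of those of the other members, which scatter on both sides of 0.

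Med21 made up 1.98% and 2.61% of the summed CPM of all members in the NKX1-2 blastocyst sums, against 9.21% and 7.54% in the control blastocyst sums. In the morula it made up 1.84% and 1.65% in the NKX1-2 sums, against 4.43% and 5.12% in the control sums. The log2 ratio of Med21 to the summed CPM of the other members was lower in NKX1-2 sums by a mean difference of -1.96 ± 0.51 in the blastocyst and -1.49 ± 0.27 in the morula (SD, n = 2 plates each). Leaving Med10 out of the sum, an alternative added after the data were seen, gave -1.98 and -1.49. The ratio rests on the same Med21 counts as the levels above and was given no test.

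Med21 was also read as the share of wells with a count. At such low counts per well this share largely follows the mean level. It thus cannot tell a difference in some wells from a difference in all. A Med21 count was found in 27 of 47 NKX1-2 wells of blastocyst plate 1 (57.4%, exact Clopper-Pearson 95% interval 42.2% to 71.7%), against 40 of 43 control wells (93.0%, 80.9% to 98.5%). On blastocyst plate 2 it was found in 36 of 44 NKX1-2 wells (81.8%, 67.3% to 91.8%), against 42 of 43 control wells (97.7%, 87.7% to 99.9%). On the morula plates the shares were 77.1% and 70.2% of NKX1-2 wells, against 95.8% and 95.8% of control wells. NKX1-2 wells were the deeper ones on every plate, by their median counts, and still had the lower share. Thinning each well to 10000 counts gave 21.3% and 41.9% of NKX1-2 blastocyst wells, against 73.8% and 83.7% of control blastocyst wells. In the morula the thinned shares were 29.8% and 27.7% of NKX1-2 wells, against 66.7% and 72.9% of control wells. The thinned share of NKX1-2 wells was below that of control wells on each plate, and 3 wells, 1 each of blastocyst plate 1 control, blastocyst plate 2 NKX1-2 and morula plate 1 NKX1-2, had too few counts to be thinned. Intervals cover counting error only, and wells are not replicates of a condition.

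Shares of 3 other members were read the same way. Med28, a tail subunit and the member with the most counts over the 8 sums, was found after thinning in 93.6% and 90.7% of NKX1-2 blastocyst wells, against 90.5% and 90.7% of control blastocyst wells. In the morula it was found in 93.6% and 85.1% of NKX1-2 wells, against 93.8% and 93.8% of control wells. Med9, a middle subunit with a mean level close to that of Med21, ranged between 59.6% and 68.8% over all 8 sums after thinning. Ccnc, at its lower level, was found after thinning in 19.1% and 11.6% of NKX1-2 blastocyst wells, against 23.8% and 18.6% of control ones, and in 23.4% and 12.8% of NKX1-2 morula wells, against 37.5% and 31.2% of control ones. The single well with the most Med21 counts held 34 of the 211 counts of the blastocyst plate 1 control sum, and at most 15 counts in any other sum. Without the top well of each sum Med21 was at -1.92 (adjusted p = 0.00212) in the blastocyst and -1.57 (adjusted p = 0.0033) in the morula.

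**Figure D3:**
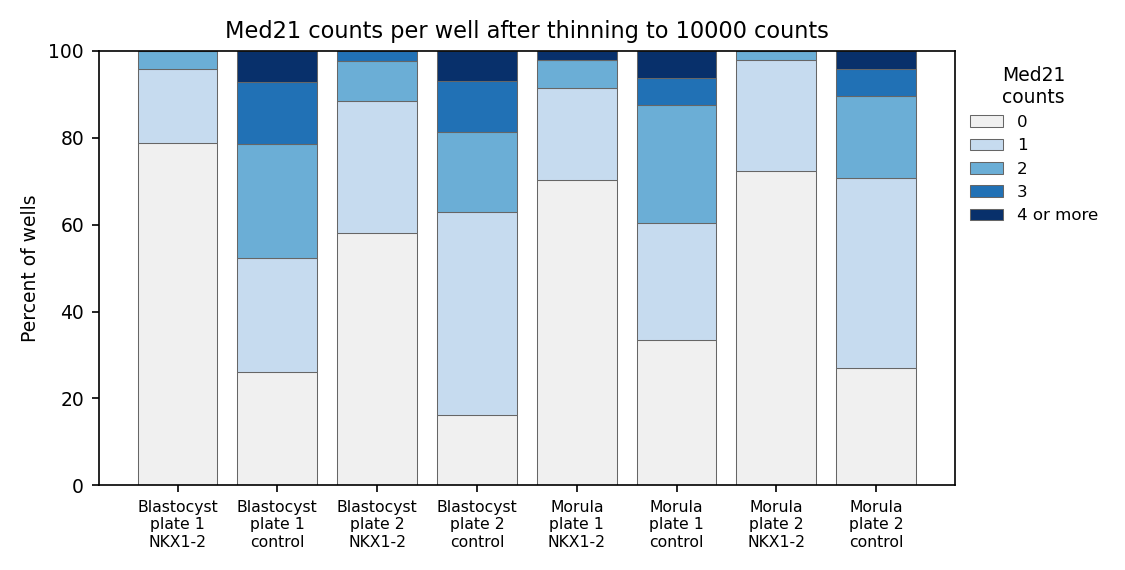
Percent of wells with 0, 1, 2, 3 or at least 4 Med21 counts after each well was thinned to 10000 counts, for every plate and morpholino. The lightest segment, wells with no Med21 count, is above 50% in 4 of 4 NKX1-2 columns and below 50% in 4 of 4 control columns.

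Med21 was also read within the sex classes, whose shares differed between the morpholinos. These CPM are not TMM-scaled. Med21 lies on chromosome 6 (chr6:146642547-146650732, plus strand, GRCm38). In the Xist class it had 40.8 and 47.7 CPM with the NKX1-2 morpholino against 312 and 141 CPM with the control in the blastocyst plates, and 51.0 and 48.6 CPM against 100.4 and 121 CPM in the morula plates. In the Y class it had 38.0 and 27.4 CPM with the NKX1-2 morpholino against 97.5 and 107 CPM with the control in the morula plates. The same direction was seen in the Y class of blastocyst plate 1, at 79.8 CPM in 4 NKX1-2 wells against 125 CPM in 14 control wells. It was not seen in that class of blastocyst plate 2, where 2 NKX1-2 wells gave 193 CPM from 15 counts, against 177 CPM in 16 control wells. In a fit of the Xist class alone, Med21 passed in the blastocyst (-2.42, adjusted p = 0.00227) and on average (-1.79, adjusted p = 0.0012) but not in the morula (-1.16, adjusted p = 0.286), where 10 NKX1-2 wells of plate 1 were left.

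Genes that overlap Med21, share sequence with it or lie near it were read as well. Exons of the opposite-strand gene Tm7sf3 overlap 197 of its exonic bases and those of the opposite-strand gene Gm6654 overlap 348, together 15.5% of its exonic length. Of its 31-base stretches, 18.5% occur in other genes, among which Gm6654, Rps26-ps1 and Rps26 share the most. In both protein-coding transcripts 0% do. Rps26, Rps26-ps1, Gm6654 and the neighbours Fgfr1op2, Ints13, Stk38l and Tm7sf3 within 100 kb did not pass at either stage. Rps26 had 6234 and 6505 CPM in the NKX1-2 blastocyst sums, against 6413 and 6245 CPM in the control ones. Tm7sf3 had 36.4 and 23.2 CPM in the NKX1-2 blastocyst sums, against 24.3 and 36.4 CPM in the control ones, with the plates in opposite order. Near Ccnc (chr4:21727701-21759922, plus strand), the neighbour Pnisr did not pass, while Ino80e, which shares some 31-base stretches with Ccnc, was at -0.56 (adjusted p = 0.0235) on average.

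Between the stages many members differed, as did many genes. In NKX1-2 wells 17 of 32 members passed between blastocyst and morula, 5 higher and 12 lower in the blastocyst, where 45.9% of all genes passed (21.9% higher, 24.0% lower). In control wells 18 of 32 passed, 5 higher and 13 lower, where 41.7% of all genes passed (20.1% higher, 21.6% lower). The members' median log2 fold change was -0.18 in NKX1-2 wells and -0.29 in control wells, with all genes at -0.02 and -0.01. In both fits 15 members passed, 4 of them higher and 11 lower, from sums that share plates but no wells. How many of all genes passed in both fits was not counted, so the 15 are not read as particular to these members. Med10 is among the higher members in each fit, and its stage value is treated below as a counting effect. Med4 and Med19 passed in NKX1-2 wells alone and Med1, Med21 and Med25 in control wells alone. The test of a difference between the stages in the morpholino effect called 0 members, as given above. Leaving out a plate left 7 to 14 members past the threshold in NKX1-2 wells, with 7 without blastocyst plate 1, and 12 to 18 in control wells. In each of these fits the share of all genes that passed was below that of the full fit. Stage and plate cannot be told apart, since no plate held both stages. Summed trophectoderm and inner cell mass markers differed between the same sums, though not every marker of a list in the same direction. Their part in these differences was not tested.

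**Figure D4:**
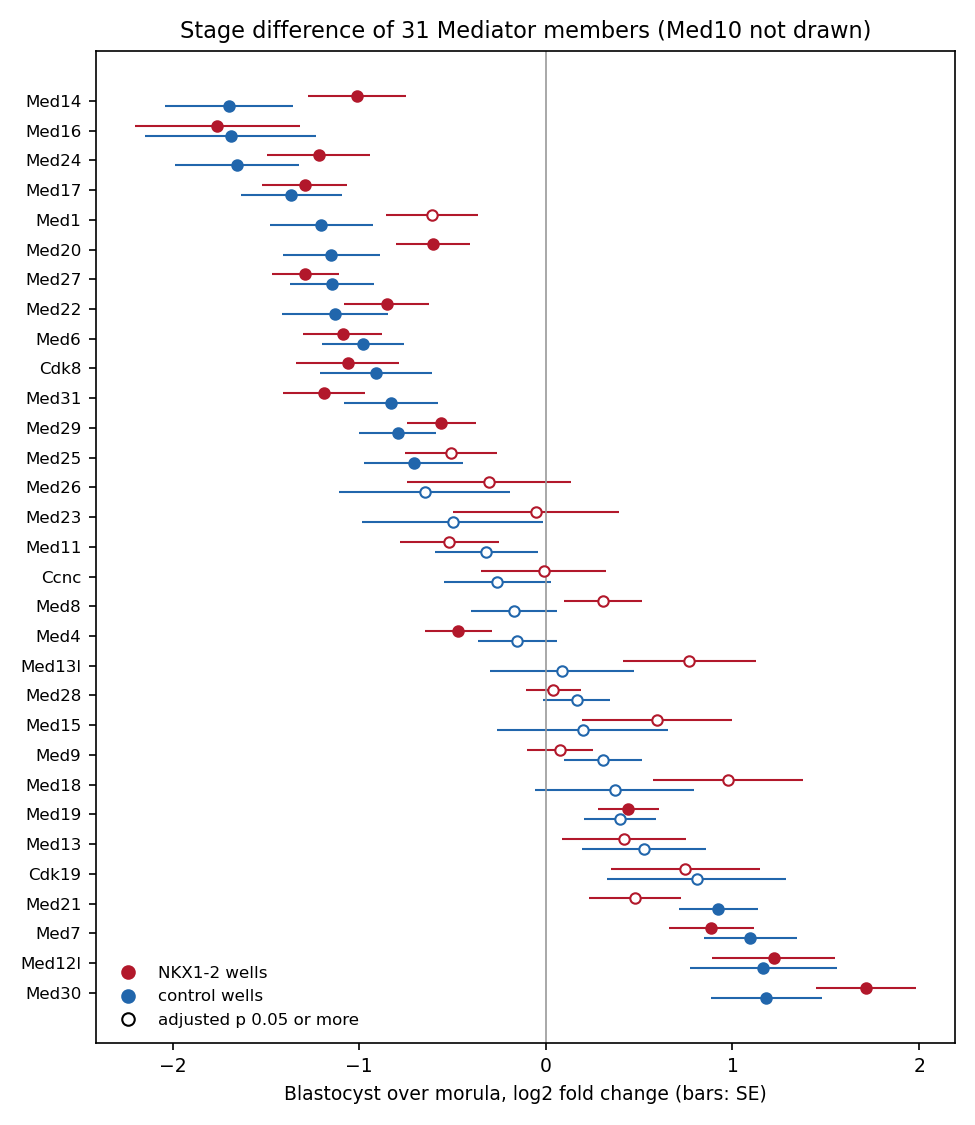
Log2 fold change of blastocyst over morula for 31 members, without Med10, with NKX1-2 wells in red and control wells in blue; bars are standard errors, and open circles have an adjusted p of 0.05 or more. Med14, Med16 and Med24 lie at the lower end and Med30, Med12l and Med7 at the upper end in control wells.

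Of the 7 head subunits, which contact RNA polymerase II, 4 were lower and 0 higher in the blastocyst in each fit: Med6, Med17, Med20 and Med22. Values in brackets are log2 fold changes of blastocyst over morula, here and for the other modules. Med17, a core subunit of the head, had 38.7 and 31.1 CPM in NKX1-2 blastocyst sums, against 79.3 and 90.8 CPM in NKX1-2 morula sums (-1.29, SE 0.23, adjusted p = 0.00016). Its control sums held 28.5 and 34.1 CPM in the blastocyst, against 69.9 and 93.6 CPM in the morula (-1.36, SE 0.27, adjusted p = 0.000333). The blastocyst sums of Med17 were all below its morula sums. Med6 had 50.4 and 82.0 CPM in NKX1-2 blastocyst sums, against 137 and 146 CPM in NKX1-2 morula sums (-1.09, SE 0.21, adjusted p = 0.000439). With the control morpholino the level of Med6 was 75.9 and 65.1 CPM in the blastocyst, against 129 and 149.9 CPM in the morula (-0.98, SE 0.22, adjusted p = 0.00104). The stages of Med6 did not overlap either. Med20, the partner of MED18, had 56.5 and 68.8 CPM in NKX1-2 blastocyst sums, against 96.3 and 94.6 CPM in NKX1-2 morula sums (-0.61, SE 0.20, adjusted p = 0.0191). Control wells gave 64.3 and 35.6 CPM of Med20 in the blastocyst, against 106 and 112 CPM in the morula (-1.15, SE 0.26, adjusted p = 0.00114). Its stages were separated for each morpholino, though the control blastocyst plates lay far apart. Med22, the partner of MED11, had 41.1 and 37.7 CPM in NKX1-2 blastocyst sums, against 77.8 and 64.0 CPM in NKX1-2 morula sums (-0.85, SE 0.23, adjusted p = 0.0054). For Med22 the control sums were at 36.9 and 28.0 CPM in the blastocyst, against 57.5 and 84.2 CPM in the morula (-1.13, SE 0.28, adjusted p = 0.00274). No blastocyst sum of Med22 reached a morula sum.

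The calls of Med6 and Med17 held without any single plate in both fits. Among wells of the Xist class alone their control calls were lost, at -0.79, adjusted p = 0.0736 for Med6 and -0.94, adjusted p = 0.107 for Med17, as was that of Med20 (-1.16, adjusted p = 0.0686). In NKX1-2 wells of that class Med20 (-0.39, adjusted p = 0.309) and Med22 (-0.57, adjusted p = 0.165) were lost. Med20 was lost in NKX1-2 wells without morula plate 1 (-0.62, adjusted p = 0.0619), morula plate 2 (-0.65, adjusted p = 0.0502) or blastocyst plate 1 (-0.46, adjusted p = 0.148). Med22 was lost in NKX1-2 wells without blastocyst plate 1 (-0.90, adjusted p = 0.0656) or 2 (-0.79, adjusted p = 0.0759), and in control wells without morula plate 2 (-0.86, adjusted p = 0.0972). Med8, Med11 and Med18 did not pass in any comparison, and Med18, at 6.90 to 19.4 CPM over the 8 sums, was the lowest of the head by mean CPM. Summed over the 7 head subunits, NKX1-2 wells gave 352 and 338 CPM in the blastocyst, against 508 and 539 CPM in the morula, and control wells gave 325 and 292 CPM in the blastocyst, against 493 and 591 CPM in the morula.

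The scaffold Med14 lies on the X chromosome (chrX:12675369-12762073, minus strand) and encodes the backbone to which the other modules attach. It had 23.2 and 22.5 CPM in NKX1-2 blastocyst sums, against 43.4 and 48.7 CPM in NKX1-2 morula sums (-1.01, SE 0.26, adjusted p = 0.00445). Its control sums were at 17.9 and 10.6 CPM in the blastocyst, against 42.9 and 47.7 CPM in the morula (-1.70, SE 0.34, adjusted p = 0.000377). The stages did not overlap, and both NKX1-2 blastocyst sums of Med14 were above both control blastocyst sums, a difference of 0.72 in log2 that did not pass (SE 0.33, adjusted p = 0.34). On those plates the Xist class held a larger share of NKX1-2 wells than of control wells, and the part of this in the level of an X-linked gene was not tested. Without blastocyst plate 1 or 2 the stage call of Med14 in NKX1-2 wells was lost (-1.02, adjusted p = 0.0594 and -0.99, adjusted p = 0.0563).

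Med12, the other X-linked member (chrX:101274030-101297465, plus strand), encodes the kinase module subunit that activates CDK8 through cyclin C. It had 5.42 and 1.32 CPM in NKX1-2 blastocyst sums, 4.22 and 3.03 CPM in control blastocyst sums, 0.76 and 0.77 CPM in NKX1-2 morula sums and 1.67 and 0.90 CPM in control morula sums. These levels rest on 17 counts over the blastocyst sums and 10 over the morula sums, below the filter on low counts, and did not pass in any comparison tested without that filter. All of its last 500 exonic bases overlap the same-strand transcript Gm21986, which had 0 counts, and the part of this overlap in the low count was not tested.

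Of the 9 tail subunits, which many transcription factors bind, 4 were lower, 1 was higher and 4 did not pass in NKX1-2 wells, and 5 were lower, 1 was higher and 3 did not pass in control wells. Med16, a subunit of the outer tail, had 3.87 and 5.29 CPM in NKX1-2 blastocyst sums, against 15.5 and 16.1 CPM in NKX1-2 morula sums (-1.76, SE 0.44, adjusted p = 0.00331). Its control levels were 4.22 and 7.57 CPM in the blastocyst, against 17.1 and 23.0 CPM in the morula (-1.69, SE 0.46, adjusted p = 0.00495). Med16 was low in all 4 blastocyst sums, which held 5 and 8 of its counts in NKX1-2 wells and 4 and 10 in control wells. DESeq2 did not call its difference in control wells (-1.72, adjusted p = 0.0565). Nor did DESeq2 call Cdk8, Med12l, Med25 and Med31 in control wells, or Med4, Med19, Med20 and Med29 in NKX1-2 wells. Med24, which sits next to MED16, had 20.1 and 24.5 CPM in NKX1-2 blastocyst sums, against 60.1 and 44.1 CPM in NKX1-2 morula sums (-1.22, SE 0.28, adjusted p = 0.00153). In control wells Med24 was at 11.6 and 19.7 CPM in the blastocyst, against 57.0 and 45.0 CPM in the morula (-1.65, SE 0.33, adjusted p = 0.000338). No blastocyst sum of Med24 reached a morula sum. Med27 had 64.3 and 72.8 CPM in NKX1-2 blastocyst sums, against 165 and 170.1 CPM in NKX1-2 morula sums (-1.29, SE 0.18, adjusted p = 1.46e-05). The control sums of Med27 held 75.9 and 59.8 CPM in the blastocyst, against 136 and 164 CPM in the morula (-1.14, SE 0.22, adjusted p = 0.000277). Its levels were again separated by stage for each morpholino.

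A smaller difference was seen for Med29, with 82.9 and 112 CPM in NKX1-2 blastocyst sums, against 147 and 142 CPM in NKX1-2 morula sums (-0.56, SE 0.19, adjusted p = 0.0195). Control wells gave 103 and 89.4 CPM of Med29 in the blastocyst, against 163 and 172 CPM in the morula (-0.79, SE 0.20, adjusted p = 0.00333). The stages of Med29 did not overlap in either fit. Med25, known as a target of viral activators, had 34.1 and 46.3 CPM in NKX1-2 blastocyst sums, against 64.6 and 50.2 CPM in NKX1-2 morula sums, which did not pass (-0.51, SE 0.25, adjusted p = 0.102). With the control morpholino Med25 was at 38.0 and 35.6 CPM in the blastocyst, against 64.1 and 56.3 CPM in the morula, which did (-0.71, SE 0.27, adjusted p = 0.0356). Its blastocyst sums were below its morula sums for each morpholino. Med30, a subunit found in metazoans, was the tail member that was higher in the blastocyst. It had 55.8 and 50.9 CPM in NKX1-2 blastocyst sums, against 15.1 and 17.2 CPM in NKX1-2 morula sums (1.71, SE 0.27, adjusted p = 5.14e-05). Its control sums gave 44.3 and 68.9 CPM in the blastocyst, against 21.6 and 29.3 CPM in the morula (1.18, SE 0.30, adjusted p = 0.00269). Every blastocyst sum of Med30 was above every morula sum.

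In NKX1-2 wells, leaving out blastocyst plate 1 ended the calls of Med16 (-1.56, adjusted p = 0.0598), Med24 (-1.08, adjusted p = 0.0754) and Med29 (-0.35, adjusted p = 0.199), and leaving out morula plate 1 ended that of Med29 (-0.56, adjusted p = 0.0665). In control wells Med16 was lost without morula plate 2 (-1.50, adjusted p = 0.0539), and Med30 without morula plate 1 (0.95, adjusted p = 0.0782) or blastocyst plate 2 (0.82, adjusted p = 0.0675). The control call of Med25 was lost without morula plate 1 (-0.63, adjusted p = 0.245), morula plate 2 (-0.83, adjusted p = 0.103) or blastocyst plate 2 (-0.64, adjusted p = 0.124). Med27 passed without any single plate in both fits, but not in control wells of the Xist class (-0.63, adjusted p = 0.169). That class also ended the control calls of Med16 (-2.34, adjusted p = 0.0725), Med25 (-0.46, adjusted p = 0.4) and Med30 (0.84, adjusted p = 0.204), and the NKX1-2 calls of Med16 (-1.36, adjusted p = 0.0796) and Med29 (-0.20, adjusted p = 0.563).

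The remaining tail members did not pass. Med28 was at 212 to 267 CPM in all 8 sums, with a stage difference of 0.04 in log2 (SE 0.15) in NKX1-2 wells and 0.17 (SE 0.18) in control wells. It had 229 and 235 CPM in NKX1-2 blastocyst sums, 249.9 and 267 CPM in control blastocyst sums, 237 and 212 CPM in NKX1-2 morula sums and 219 and 244 CPM in control morula sums. Med23 and Med15, which bind signal-responsive activators, were among the 3 tested members with the lowest mean CPM. Med23 had 12.4 and 5.95 CPM in NKX1-2 blastocyst sums, 5.27 and 8.33 CPM in control blastocyst sums, 9.06 and 9.58 CPM in NKX1-2 morula sums and 9.16 and 10.8 CPM in control morula sums. For Med15 the levels were 16.3 and 10.6 CPM in NKX1-2 blastocyst sums, 10.5 and 9.85 CPM in control blastocyst sums, 9.06 and 8.43 CPM in NKX1-2 morula sums and 7.49 and 10.4 CPM in control morula sums. Over the 4 sums of a stage Med23 and Med15 overlapped between stages, and the SE of their stage differences was 0.40 to 0.48 in log2. Summed over the 9 tail subunits, NKX1-2 wells gave 518 and 564 CPM in the blastocyst, against 723 and 670 CPM in the morula, and control wells gave 543 and 566 CPM in the blastocyst, against 695 and 754 CPM in the morula.

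In the middle module 3 of 9 members were higher and 2 lower in the blastocyst in each fit, Med10 among those higher. Med7, which MED21 and MED31 bind, had 74.4 and 63.5 CPM in NKX1-2 blastocyst sums, against 34.7 and 39.5 CPM in NKX1-2 morula sums (0.89, SE 0.23, adjusted p = 0.00382). Its control sums were at 78.0 and 80.3 CPM in the blastocyst, against 37.1 and 37.4 CPM in the morula (1.10, SE 0.25, adjusted p = 0.0011). Each blastocyst sum of Med7 was above each morula sum. Between the morpholinos Med7 differed by -0.21 (SE 0.20, adjusted p = 0.694) in the blastocyst and -0.01 (SE 0.20, adjusted p near 1) in the morula, next to the values of its partner Med21 above. The stage difference of Med21 was 0.48 in NKX1-2 wells (SE 0.25, adjusted p = 0.123) and 0.92 in control wells (SE 0.21, adjusted p = 0.00131). Without blastocyst plate 1 the call of Med7 in NKX1-2 wells was lost (0.79, adjusted p = 0.0727), and without morula plate 1 that of Med21 in control wells (0.73, adjusted p = 0.0634). Med31 had 39.5 and 63.5 CPM in NKX1-2 blastocyst sums, against 121 and 115 CPM in NKX1-2 morula sums (-1.19, SE 0.22, adjusted p = 0.000273). With the control morpholino Med31 had 49.6 and 40.9 CPM in the blastocyst, against 74.9 and 85.5 CPM in the morula (-0.83, SE 0.25, adjusted p = 0.0107). In the morula both NKX1-2 sums of Med31 were above both control sums, by 0.56 in log2, which did not pass (SE 0.19, adjusted p = 0.231) but did in a fit of the morula plates alone (0.57, adjusted p = 0.000457). That fit called 834 genes, against 60 in the fit of all 8 sums. The stage call of Med31 in control wells was lost without morula plate 2 (-0.76, adjusted p = 0.125) or blastocyst plate 2 (-0.67, adjusted p = 0.0692), and in wells of the Xist class (-0.82, adjusted p = 0.116). Med7 did not pass in that class either, at 0.77, adjusted p = 0.066 in NKX1-2 and 0.73, adjusted p = 0.188 in control wells.

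Med1, the subunit that nuclear receptors bind, had 41.8 and 35.1 CPM in NKX1-2 blastocyst sums, against 66.9 and 49.8 CPM in NKX1-2 morula sums, just short of the threshold (-0.61, SE 0.25, adjusted p = 0.0505). Its control sums held 31.6 and 25.8 CPM in the blastocyst, against 64.1 and 67.5 CPM in the morula, which passed (-1.20, SE 0.27, adjusted p = 0.00119). The stages of Med1 did not overlap for either morpholino. Med4, a core subunit paired with MED9, had 93.0 and 94.6 CPM in NKX1-2 blastocyst sums, against 120.1 and 139 CPM in NKX1-2 morula sums (-0.47, SE 0.18, adjusted p = 0.0391). For Med4 the control sums gave 101 and 106 CPM in the blastocyst, against 111 and 121 CPM in the morula (-0.15, SE 0.21, adjusted p = 0.585). Only the NKX1-2 difference passed. Med19, among the 3 members with the highest mean CPM, had 241 and 189 CPM in NKX1-2 blastocyst sums, against 153 and 162 CPM in NKX1-2 morula sums (0.44, SE 0.16, adjusted p = 0.0336). Control sums of Med19 were at 211 and 173 CPM in the blastocyst, against 141 and 151 CPM in the morula (0.40, SE 0.19, adjusted p = 0.103). Its blastocyst sums were above its morula sums, though only the NKX1-2 difference passed. Both NKX1-2 calls were lost without 3 of the 4 plates, for Med4 without morula plate 2 (-0.39, adjusted p = 0.196), blastocyst plate 1 (-0.44, adjusted p = 0.161) or blastocyst plate 2 (-0.48, adjusted p = 0.127), and that of Med4 also in the Xist class (-0.56, adjusted p = 0.0678). For Med19 these were morula plate 1 (0.37, adjusted p = 0.176), morula plate 2 (0.45, adjusted p = 0.104) and blastocyst plate 1 (0.27, adjusted p = 0.263). Med9 and Med26 did not pass in any comparison, at 96.2 to 134 CPM and at 5.95 to 15.8 CPM over the 8 sums.

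Med10, a middle subunit that binds MED14, had the largest stage value of the complex. It had 458 and 492 CPM in NKX1-2 blastocyst sums, 555 and 423 CPM in control blastocyst sums, 0.76 and 1.15 CPM in NKX1-2 morula sums and 0.42 and 1.80 CPM in control morula sums. In counts these were 2420 over the blastocyst sums, against 10 over the morula sums. The log2 fold change was large in NKX1-2 wells (8.87, SE 0.27, adjusted p = 1.1e-14) and in control wells (8.73, SE 0.35, adjusted p = 1.48e-15). Med10 lies at chr13:69802395-69816104 on the plus strand, and exons of the opposite-strand lincRNA Gm26819 cover 92.8% of its exonic length. Gm26819 itself had 7 counts in the blastocyst sums and 5 in the morula sums. The stage value of Med10 is treated here as an effect of how overlapping genes were counted, and no stage change is read from it. Genes with such overlap were read in groups, as a description without a test. Only genes with at least 80 counts over the 8 sums were grouped. A gene near 0 in the morula thus entered only through its blastocyst counts, and genes low at both stages were left out. The group with over 90% of exonic length under exons of opposite-strand genes held 14 genes, Med10 among them. Of these, 13 were more than 4-fold higher in control blastocyst sums than in control morula sums. The median log2 ratio of the 14 was 6.61. The median was 3.26 for 7 genes with over 75% to 90%, 1.10 for 49 genes with over 50% to 75% and 0.36 for 274 genes with over 25% to 50%. It was 0.03 for 2339 genes with less and -0.08 for 6620 genes with none. Med10, at 8.25 with a pseudocount of 0.5 CPM, ranked 6 from the top of these 9303 genes. Whether the stages were counted with different settings is not given in the sources used here.

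**Figure D5:**
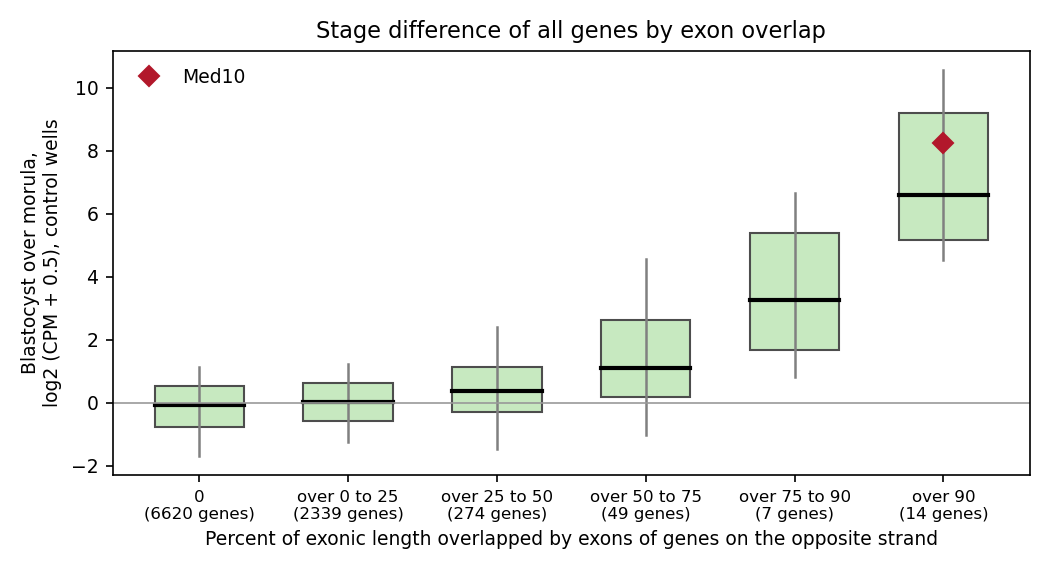
Log2 ratio of blastocyst over morula in control wells, on CPM plus 0.5, for 9303 genes grouped by the percent of exonic length under exons of opposite-strand genes. Boxes span the 25th to 75th percentile with the median as a bar, grey lines run from the 10th to the 90th percentile, and the diamond is Med10, inside the group with over 90% overlap and a median of 6.61.

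Between the morpholinos Med10 differed by -0.03 in log2 in the blastocyst (SE 0.15, adjusted p = 0.967), within the spread between plates. Summed over all 33 members, Mediator took 2149.6 and 2151 CPM in NKX1-2 blastocyst sums, 2417 and 2149 CPM in control blastocyst sums, 2030.1 and 2042 CPM in NKX1-2 morula sums and 1992 and 2234.5 CPM in control morula sums. Without Med10 the blastocyst sums held 1659 to 1862 CPM, against 1992 to 2233 CPM in the morula sums, so the stages were then separated. Other members with overlapped ends and a stage call were Med12l, whose last 500 exonic bases lie wholly under the opposite-strand gene Igsf10, and Med19, with 49.2% of them overlapped. Over the whole exonic length, opposite-strand exons cover 21.2% of Med7, 17.3% of Med12l, 15.5% of Med21 and 12.9% of Med19. Each was called higher in the blastocyst in either or both fits, and Med30 alone of those called higher has no overlap. Such exons cover 26.3% of Med31 and 21.4% of Med20, both called lower, and less of Med27 and Med29. In control wells the median log2 ratio of genes with over 0% to 25% was 0.03. The part of overlap in these calls was not tested. Med6, Med14, Med16, Med17, Med22, Med30 and Cdk8, each with a stage call in both fits, have no exon overlap with another gene.

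The kinase module, which can bind the core complex and hold it away from the polymerase, summed to 103 to 156 CPM over its 7 members, and 1 member was higher and 1 lower in the blastocyst in each fit. Cdk8, its kinase, had 23.2 and 23.8 CPM in NKX1-2 blastocyst sums, against 40.4 and 57.9 CPM in NKX1-2 morula sums (-1.06, SE 0.28, adjusted p = 0.00424). Its control sums held 22.1 and 23.5 CPM in the blastocyst, against 41.6 and 45.0 CPM in the morula (-0.91, SE 0.30, adjusted p = 0.0182). The 4 blastocyst sums of Cdk8 were close together and below the morula sums. Its paralog Cdk19 had 11.6 and 14.6 CPM in NKX1-2 blastocyst sums, against 7.93 and 7.66 CPM in NKX1-2 morula sums (0.75, SE 0.40, adjusted p = 0.136). With the control morpholino Cdk19 was at 16.9 and 8.33 CPM in the blastocyst, against 5.83 and 8.10 CPM in the morula (0.81, SE 0.48, adjusted p = 0.184). The pair had stage values of opposite sign, of which that of Cdk8 passed. The call of Cdk8 in NKX1-2 wells was lost without morula plate 2 (-0.82, adjusted p = 0.0635), blastocyst plate 1 (-1.03, adjusted p = 0.0922) or blastocyst plate 2 (-1.08, adjusted p = 0.0742). In control wells it was lost without morula plate 1 (-0.99, adjusted p = 0.0763), morula plate 2 (-0.89, adjusted p = 0.119) or blastocyst plate 2 (-0.94, adjusted p = 0.0527), and in the Xist class (-0.64, adjusted p = 0.305).

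Med12l, the paralog of Med12, was the kinase module member that was higher in the blastocyst. It had 24.8 and 31.1 CPM in NKX1-2 blastocyst sums, against 10.2 and 13.8 CPM in NKX1-2 morula sums (1.22, SE 0.33, adjusted p = 0.0055). In control wells Med12l was at 21.1 and 19.7 CPM in the blastocyst, against 9.99 and 8.10 CPM in the morula (1.17, SE 0.39, adjusted p = 0.021). Its stages did not overlap. The call of Med12l was lost in NKX1-2 wells without morula plate 1 (0.99, adjusted p = 0.0674) or blastocyst plate 2 (1.04, adjusted p = 0.0849), and in control wells without morula plate 1 (1.30, adjusted p = 0.0908) or 2 (0.99, adjusted p = 0.201). In the Xist class it did not pass, at 0.81, adjusted p = 0.183 in NKX1-2 and 1.10, adjusted p = 0.161 in control wells. Med13 and Med13l, which tie the kinase module to the core complex, did not pass between stages. Med13 had 33.3 and 19.8 CPM in NKX1-2 blastocyst sums, 42.2 and 25.0 CPM in control blastocyst sums, 15.9 and 23.4 CPM in NKX1-2 morula sums and 23.7 and 22.1 CPM in control morula sums. For Med13l the levels were 19.4 and 16.5 CPM in NKX1-2 blastocyst sums, 13.7 and 16.7 CPM in control blastocyst sums, 10.2 and 10.7 CPM in NKX1-2 morula sums and 13.3 and 15.8 CPM in control morula sums. Med13 overlapped between stages in NKX1-2 wells and Med13l in control wells. Ccnc had a stage value of -0.01 (SE 0.33, adjusted p = 0.981) in NKX1-2 wells and -0.26 (SE 0.29, adjusted p = 0.488) in control wells and did not pass.

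Among the members, mean CPM over the 8 sums was highest for Med10, Med28 and Med19, at 242, 237 and 178 CPM, and lowest among tested members for Med23, Cdk19 and Med15, at 8.82, 10.1 and 10.3 CPM. The place of Med10 comes from the blastocyst sums, with a mean of 482 CPM there against 1.03 CPM in the morula sums, where Med12 alone was lower. In the morula sums Med28, Med27 and Med29 were highest, at 228, 159 and 156 CPM. Per kilobase of exonic length the level was highest for Med29, Med19 and Med6, at 98.7, 86.3 and 72.1 CPM per kb, and Med21 was at 26.9 CPM per kb. Across 9303 genes of the same libraries the level in CPM was almost unrelated to exonic length, with a Spearman correlation of 0.0526 in the blastocyst and -0.0601 in the morula, so a level per length may not be comparable between genes here.

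Genes of the machinery that Mediator works with were read from lists of RNA polymerase II subunits, general transcription factors and pausing and elongation factors. Of the 12, 30 and 22 genes tested, 0 passed in the blastocyst and 0 in the morula between the morpholinos, in edgeR as in DESeq2 and limma voom. At an unadjusted p under 0.05, edgeR had 1 polymerase subunit in the blastocyst and 2 in the morula, 3 and 2 general transcription factors, and 6 and 4 pausing and elongation factors, next to the 13.7% and 10.7% of all genes at that p. On average over the stages 0 polymerase subunits passed, while Gtf2h4, a subunit of TFIIH, was higher by 0.71 (SE 0.16, adjusted p = 0.0273). The subunits of the elongation factor DSIF were also higher, Supt4a by 0.39 (SE 0.09, adjusted p = 0.0235) and Supt5 by 0.53 (SE 0.12, adjusted p = 0.029). DESeq2 called none of these 3 genes, and 74.6% of the last 500 exonic bases of Supt5 are overlapped.

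Between stages, 5 of 12 polymerase subunits were higher and 1 lower in the blastocyst in NKX1-2 wells, and 4 were higher and 2 lower in control wells. The 6 of 12 called, 50% in each fit, stand next to 45.9% of all genes in NKX1-2 wells and 41.7% in control wells. Polr2b, the second largest subunit, was higher by 1.48 (SE 0.22, adjusted p = 3.73e-05) in NKX1-2 wells and by 1.75 (SE 0.25, adjusted p = 9.16e-06) in control wells. Polr2a, the largest subunit, was higher by 1.50 in NKX1-2 wells (SE 0.34, adjusted p = 0.00166). Polr2g and Polr2k were higher by 0.86 and 0.68 in NKX1-2 wells and by 1.10 and 0.93 in control wells, and Polr2f fell by 0.56 in control wells. Of the general transcription factors, 3 of 30 were higher and 6 lower in NKX1-2 wells, and 4 of 29 were higher and 7 lower in control wells, in all 30% and 37.9% of those tested and below the shares over all genes. Taf6, a subunit of TFIID, was higher by 3.87 in NKX1-2 wells and 4.06 in control wells, and all of its last 500 exonic bases are overlapped. Gtf2f1, Taf8 and Gtf2h4 fell by 0.72, 1.57 and 1.02 in NKX1-2 wells. In control wells Gtf2b was higher by 1.36, while Gtf2h3 fell by 0.97 and Ercc2, with 52.2% of its last 500 exonic bases overlapped, fell by 2.13. In each list up to 4 genes are named per fit, by p, so a gene named for a single morpholino may have passed for both. DESeq2 and limma voom also called Gtf2f1, Taf8 and Gtf2h4 in control wells. In NKX1-2 wells limma voom also called Gtf2b, Gtf2h3 and Ercc2.

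Of the pausing and elongation factors, 1 of 23 was higher and 7 lower in NKX1-2 wells, and 1 of 22 was higher and 6 lower in control wells, in all 34.8% and 31.8% of those tested and also below the shares over all genes. Cdk9, the kinase of P-TEFb, fell by 1.54 (SE 0.21, adjusted p = 1e-05) in NKX1-2 wells and by 0.96 (SE 0.21, adjusted p = 0.000861) in control wells. The NELF subunit Nelfcd fell by 1.55 in NKX1-2 wells and by 1.47 in control wells, Nelfe fell by 0.81 in NKX1-2 wells and Nelfb by 1.00 in control wells. Aff4, the scaffold of the super elongation complex, was higher by 1.37 in NKX1-2 wells and 1.33 in control wells. The median stage difference was 0.16 in NKX1-2 wells and 0.06 in control wells for polymerase subunits, -0.17 and -0.15 for general transcription factors, and -0.28 and -0.06 for pausing and elongation factors, next to -0.18 and -0.29 for the Mediator members.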

How the data were processed

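The authors deposited a table of raw counts, genes by well barcodes, for every plate, per the labels and as its whole numbers show. The submitters' processing notes name TopHat2, GRCm38 and mm10 with no version or role. How reads were assigned to genes, with or without strand, and if identical molecules were collapsed, is not given in the sources used here. The morpholino of each well came from the barcode table deposited with the counts.

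Counts of wells with at least 2000 detected genes were summed per plate and morpholino, giving 1084312 to 2398605 counts per sum. A run of 344 neighbouring genes without morula counts (1.68% of blastocyst counts) stayed out of every fit. Low counts were filtered with filterByExpr, and CPM were scaled by TMM. Morpholino effects came from 1 robust edgeR quasi-likelihood fit of the 8 sums, blocked by plate because each plate holds both morpholinos; stage effects came from separate fits of 4 sums (R 4.3.3, edgeR 4.0.16, limma 3.58.1, DESeq2 1.42.0, Python 3.11.15, SciPy 1.17.1). Deviations of the 2 sums of a plate correlated at -0.000704 in the blastocyst and 0.257 in the morula. Benjamini-Hochberg adjusted p under 0.05 passed, over all genes tested. Per-plate log2 differences used a prior count of 2. The scripts were tested on simulated data. Intervals are exact binomial at 95%.

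Exon overlaps, positions and shared 31-base stretches came from GENCODE M21 (GRCm38), and promoters from RefSeq (GRCm38.p6). Values in every plate are given for members past the threshold in any comparison, Med21, Med10, X-linked members, the 3 highest and 3 lowest by mean CPM and the paralog pairs; lists name up to 4 genes a comparison, by p. The members and lists were chosen with earlier results of these data known. Alternatives were RLE and DESeq2 size factors, limma voom, no filter, every well, wells with at least 4000 genes, wells of the Xist class, other blocks, single-stage fits, leaving out each plate and, chosen after seeing the data, Med10 left out of the member sum. No protein sequence was used here.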

Additional observations from a re-analysis of the deposited data

How the results depend on the processing

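No called value changed sign under the alternatives run. For Med21, 14 of 14 alternatives passed in the blastocyst (-2.42 to -1.52), 12 of 14 in the morula (-1.75 to -1.16) and 13 of 13 on average (-1.94 to -1.51). Of 32 members, the blastocyst call of 1 became 1 to 2 with a plate left out. The morula count of 2 became 1 with DESeq2, 0 among wells of the Xist class and 0 to 3 with a plate left out. The average count of 2 became 1 with DESeq2, 1 among wells of the Xist class and 2 to 4 with a plate left out. The difference between stages, 0 members, became 0 to 1. Without blastocyst plate 1, Med20 passed in the blastocyst (0.96, adjusted p = 0.0157) and in the difference between stages (1.15, adjusted p = 0.0107), and Med30 (-0.54, adjusted p = 0.0361) and Med31 (0.60, adjusted p = 0.00182) passed on average; Med31 also passed in the morula without blastocyst plate 1 (0.56, adjusted p = 0.000654) or 2 (0.56, adjusted p = 0.000629). The cause of these gains and losses was not tested. Between stages, 17 members in NKX1-2 wells became 10 of 29 tested among wells of the Xist class and 7 to 14 of 32 with a plate left out, and 18 in control wells became 7 of 29 and 12 to 18 of 32. Over all genes, 2684 of 7297 passed in NKX1-2 wells of the Xist class and 1602 of 7024 in control wells of that class. With a plate left out the share over all genes was smaller than in the full fit, as given above. DESeq2 gave 13 members in each, where 2998 of 10221 genes passed in NKX1-2 wells and 2513 of 9577 in control wells. Without the replicate block of plates, 1 member passed in the morula; Ccnc was then at -1.16 (adjusted p = 0.0707). With a replicate block of same-numbered plates across stages, which share only a number (correlations -0.00201 for NKX1-2 and 0.0251 for control), 18 members passed in NKX1-2 wells, with Med1 added, and 18 in control wells. The ratio of Med21 to the other members in the morula moved to -1.09 among wells of the Xist class. The difference in the share of wells with a Med21 count, -25.7 points in the blastocyst and -22.2 in the morula, became -47.2 and -41.1 points in thinned wells. Over all genes the morula count of 60 became 15 with DESeq2, 8 in the Xist class, 34 without the block, 179 without the filter, 834 in the morula plates alone, 17 and 13 without morula plates 1 and 2, and 833 and 838 without blastocyst plates 1 and 2. Counts were few for the low members: Med12 stayed below the filter on low counts and did not pass where it was tested, without the filter or without blastocyst plate 2.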
